A study of Mus musculus with 18 samples.

Results

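The genes described here are 9 genes of the oxygen-sensing pathway that works through the hypoxia-inducible factors (HIF), picked by symbol from an RNA table of 26599 genes. They are Hif1a and Epas1, which encode the oxygen-regulated subunits HIF-1α and HIF-2α, and Arnt, which encodes their constitutive partner HIF-1β. Egln1, Egln2 and Egln3 encode the prolyl hydroxylases PHD2, PHD1 and PHD3, Hif1an the asparaginyl hydroxylase FIH, Vhl the substrate-binding subunit of a ubiquitin ligase, and Vegfa the angiogenic growth factor that is a classic HIF target. Every one of the 9 symbols had a single row, and 7 reached 1 FPKM in at least 2 libraries and were tested.

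In cells with oxygen, the prolyl hydroxylases mark the HIF alpha subunits, VHL binds the mark, and the subunits are degraded. FIH separately blocks the binding of the coactivators p300 and CBP. When oxygen falls the alpha subunits persist, pair with ARNT and switch on genes for glucose uptake, glycolysis, vessel growth and red cell supply, and among these genes are Egln1 and Egln3 themselves. The alpha subunits are set mainly by protein stability, so RNA levels do not give HIF activity. In humans, inherited changes in EGLN1, VHL and EPAS1 can cause an excess of red cells, through raised erythropoietin for the most part.

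The cells were MEL, an established mouse erythroleukemia line whose blocked red cell precursors start to make hemoglobin in dimethyl sulfoxide (DMSO). One group of 2 libraries came from cells grown for 5 days in 2% DMSO (day 5), and the other group of 2 libraries from the same line in the same medium without DMSO (day 0). The labels call both libraries of a day biological replicates. Limma's p-values set the difference between days against the spread between replicates, moderated with that of all genes tested. Oxygen tension is not stated in the labels' protocols. After treatment most cells stained for hemoglobin, per the labels, and the days differ in time in culture as well as in DMSO. The values were FPKM, fragment counts scaled by transcript length and library size, so levels of different genes can be set side by side. Depth per library is unknown, since no counts come with these values. Summed FPKM were 787494 and 781468 on day 5, against 774686 and 758150 on day 0. Of 12 erythroid marker genes 10 rose and 0 fell by limma's adjusted p, with summed levels of 33686 and 31914 FPKM on day 5 and 2289 and 1556 FPKM on day 0. Of 8 macrophage and granulocyte markers 7 were at or near 0 in every library, among them Csf1r, Itgam, Lyz2 and Mpo, and the list summed to 0.628 and 2.09 FPKM on day 5 and 1.22 and 0.766 FPKM on day 0. Markers of T and B cells, fibroblasts and endothelium summed to at most 1.86 FPKM in any library. Of 4 mast cell markers 1 was tested, and it fell. The mast cell list summed to 0.382 and 0.376 FPKM on day 5 and 10.4 and 6.48 FPKM on day 0. Which cells that RNA came from was not tested. The 4 megakaryocyte markers, which share Itga2b with early blood progenitors, were all tested, and 1 rose and 0 fell by limma's adjusted p. They summed to 138 and 112 FPKM on day 5 and 57.4 and 18.2 FPKM on day 0, and their part in the results was not tested.

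Arnt rose and Egln1 fell on day 5, while the days overlapped for Hif1a and the other 4 tested members did not pass. In bulk RNA, fewer cells of a type and less RNA per cell cannot be told apart. Differences were tested with limma on log2(FPKM + 1) over 10736 genes, with a threshold of 0.05 on the Benjamini-Hochberg adjusted p. Of the 7 members tested 1 passed upward and 1 downward, against 10.7% and 7.81% of all genes tested, so the number of calls among so few genes does not set them apart. Without any 1 library the log2 fold change ranged from 0.98 to 1.40 for Arnt and from -1.02 to -0.73 for Egln1. A fit with 1 library on a day could not decide whether they passed. With no filter on low FPKM limma's adjusted p was 0.116 for Arnt and 0.0944 for Egln1, so neither passed. In that fit 237 of 15168 genes passed over all, against 1989 of 10736 in the main fit. Over all genes 1150 rose and 839 fell with the deposited scaling. The split was 814 and 895 after quantile normalization, and 1485 and 693 with globin and mitochondrially encoded genes removed. The median log2 fold change of all genes was 0.15 as deposited, 0.013 after quantile normalization and 0.26 with those genes removed. Every tested member kept its direction under these scalings except Hif1a, which stood at -0.019 after quantile normalization.

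The start regions of the pair of members that passed, and of Egln2 as the paralog of Egln1 whose RNA was not lower, are printed to show where the core letters of the HIF site lie. HIF dimers bind ACGTG or GCGTG, and both were searched on both strands. The stretches run from 200 bases before to 10 bases after the RefSeq start, in the direction of transcription, from GRCm38.p6, with matches in capitals. They are chr3:95434190-95434399 (plus strand) for Arnt, chr8:124949245-124949454 (minus strand) for Egln1 and chr7:27166793-27167002 (minus strand) for the first of 2 Egln2 starts.
Arnt: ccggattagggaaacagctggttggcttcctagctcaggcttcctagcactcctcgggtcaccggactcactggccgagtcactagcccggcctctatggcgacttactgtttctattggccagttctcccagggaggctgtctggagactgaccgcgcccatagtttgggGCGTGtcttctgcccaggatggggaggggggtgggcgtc
Egln1: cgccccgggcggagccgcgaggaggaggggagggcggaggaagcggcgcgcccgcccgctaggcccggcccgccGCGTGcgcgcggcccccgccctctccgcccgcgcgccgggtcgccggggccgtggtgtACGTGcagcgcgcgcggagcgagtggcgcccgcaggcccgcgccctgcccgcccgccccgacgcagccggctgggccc
Egln2: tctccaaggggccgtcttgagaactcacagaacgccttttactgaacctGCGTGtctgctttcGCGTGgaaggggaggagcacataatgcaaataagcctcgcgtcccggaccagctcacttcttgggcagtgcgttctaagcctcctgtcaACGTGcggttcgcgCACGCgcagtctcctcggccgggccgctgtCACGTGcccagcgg

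Arnt held 1 GCGTG, which began 29 bases before the start. Egln1 held a GCGTG 126 bases and an ACGTG 68 bases before the start, in a stretch of 86.7% G and C. The printed Egln2 start held 6 matches, of which 2 are the same CACGTG read on both strands at the start. That palindrome is also the E-box that MYC and USF proteins bind. The other Egln2 start held 1 match in the same span, a GCGTG 116 bases before it. Which Egln2 start these cells use was not tested. Of the 10 RefSeq windows of 300 bases that matched 8 of the 9 members, 7 held at least 1 match, and among all 32851 windows 43.8% did. For ACGTG alone the numbers were 5 of 10 windows and 19.6% of all. Matches of 5 letters are thus frequent among all windows, and the part of G and C content in these counts was not tested. None of the matches was tested for binding here.

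Among the alpha subunits, Hif1a (ENSMUSG00000021109.7) had 32.2 and 31.4 FPKM in the day 5 libraries, against 27.9 and 32.1 FPKM in the day 0 libraries. The libraries of both days overlapped. The log2 fold change was 0.084 ± 0.19 (SE), with a 95% interval of -0.39 to 0.56, and it did not pass (limma adjusted p = 0.772). On the linear scale that interval reaches from 0.762 to 1.47 times the day 0 level, so a change of that order could have gone undetected. RefSeq lists a long noncoding RNA gene over part of Hif1a (Gm15283) and over part of Egln1 (Gm46060), and the sources used here do not say whether the quantification used the strand, so reads from such pairs may be mixed. Epas1 (ENSMUSG00000024140.9) was listed at 0.0366 FPKM in day 5 replicate 1 and at effectively 0 in the other 3 libraries, and was not tested. Of this pair, Hif1a was thus the gene listed above 1 FPKM. Hif3a, another relative of the alpha subunits, had 2.35 and 3.29 FPKM on day 5, against 5.13 and 5.07 FPKM on day 0, which did not pass.

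Arnt (ENSMUSG00000015522.11) had 99.5 and 134 FPKM in the day 5 libraries, against 56.5 and 44.1 FPKM in the day 0 libraries. Both day 5 libraries lay above both day 0 libraries. The means were 117 ± 24.1 FPKM on day 5 and 50.3 ± 8.81 FPKM on day 0 (SD, n = 2 each), a ratio of 2.32. The log2 fold change was 1.19 ± 0.23 (SE) with limma's adjusted p = 0.0304, and 10.5% of all tested genes had a higher one. The level of Arnt stood above that of 90.9% of tested genes on day 5 and 78.3% on day 0.

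Set within each library, Arnt exceeded Hif1a 3.09-fold and 4.26-fold in the day 5 libraries, against 2.03-fold and 1.37-fold in the day 0 libraries. The ratio was thus higher in both day 5 libraries than in either day 0 library. The exact two-sided permutation p was 0.333, which is the smallest that 2 against 2 libraries allow, so this test could not pass.

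**Figure D1:**
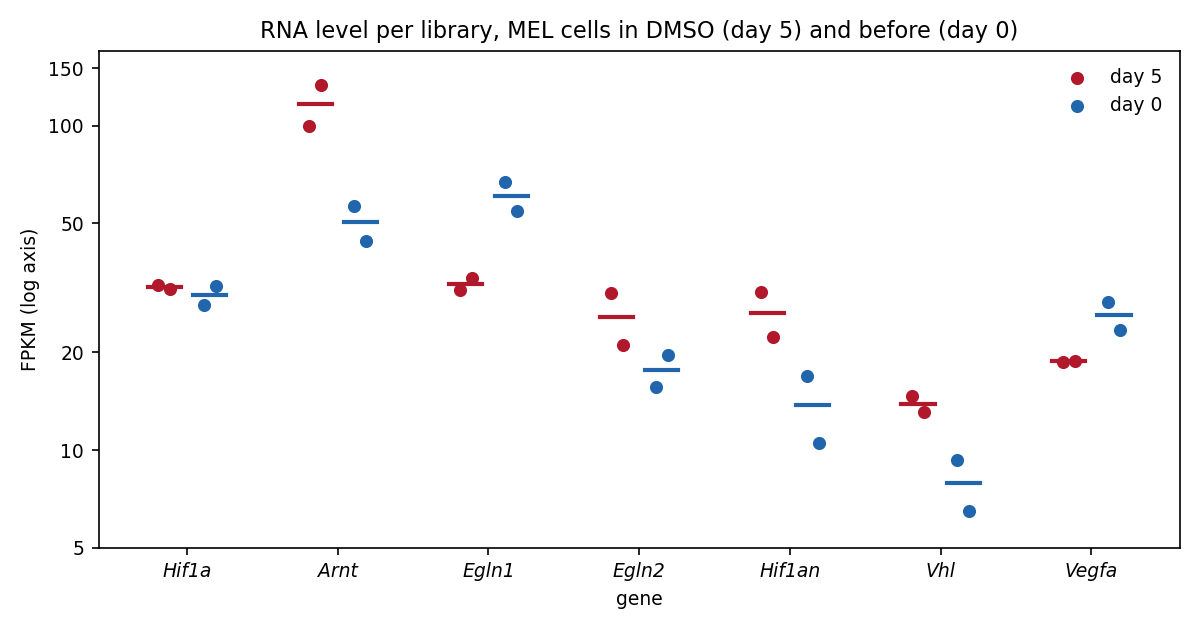
RNA level in FPKM on a log axis of the 7 members that were tested, with 1 point per library and a bar at the mean of the 2 libraries of a day (day 5 left in red, day 0 right in blue). Arnt stands at 99.5 and 134 FPKM on day 5 above 56.5 and 44.1 on day 0, Egln1 at 31.2 and 33.9 below 67.0 and 54.7, and the days overlap for Hif1a.

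The prolyl hydroxylases did not share a direction. Egln1 (ENSMUSG00000031987.5), the gene of PHD2, the main HIF hydroxylase in most cells with oxygen, had 31.2 and 33.9 FPKM in the day 5 libraries, against 67.0 and 54.7 FPKM in the day 0 libraries. Both day 5 libraries lay below both day 0 libraries, at 0.535 times the day 0 mean. Its log2 fold change was -0.88 ± 0.19 (SE) with limma's adjusted p = 0.0388, and 11.6% of tested genes had a lower one.

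Egln2 (ENSMUSG00000058709.5), the gene of PHD1, had 30.4 and 21.1 FPKM in the day 5 libraries, against 15.6 and 19.7 FPKM in the day 0 libraries. The days did not overlap, but day 5 replicate 2 lay close to day 0 replicate 2. Its log2 fold change of 0.51 ± 0.27 (SE) did not pass (limma adjusted p = 0.220), with a 95% interval of -0.17 to 1.18, and it was 0.25 without day 5 replicate 1 and 0.76 without day 5 replicate 2.

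Egln3 (ENSMUSG00000035105.5), the gene of PHD3, was listed at 0 in all 4 libraries. Ppia, a housekeeping gene with many processed copies, was listed at effectively 0 in both day 5 libraries and at 2.98 and 0.547 FPKM in the day 0 libraries. Entries near 0 in this table may thus be failed estimates. Whether the exact 0 of Egln3 is such an entry was not tested. For Epas1 and Egln3 the table shows only how they were listed.

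Within the prolyl hydroxylase RNA, Egln1 had the smaller share on day 5. It made up 50.7% and 61.6% of the summed FPKM of the 3 genes in the day 5 libraries, against 81.1% and 73.5% in the day 0 libraries. Since Egln3 entered as listed, at 0, these are in effect shares of Egln1 and Egln2 alone. The sum itself was 61.6 and 55.0 FPKM on day 5, against 82.7 and 74.3 FPKM on day 0. The ratio of Egln1 to Egln2 was 1.32 ± 0.410 on day 5 and 3.53 ± 1.06 on day 0 (SD, n = 2 each), with an exact two-sided permutation p of 0.333, again the smallest possible.

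Hif1an and Vhl, which act on the alpha subunits beside the prolyl hydroxylases, were both higher in each day 5 library than in either day 0 library, yet neither passed. Hif1an (ENSMUSG00000036450.4), the gene of FIH, had 30.6 and 22.3 FPKM on day 5, against 17.0 and 10.5 FPKM on day 0. Its log2 fold change was 0.92 ± 0.31 (SE), with a 95% interval of 0.13 to 1.70 before adjustment over all genes (limma adjusted p = 0.0921). That log2 fold change was 0.60 without day 0 replicate 2 and 1.24 without day 0 replicate 1. Vhl (ENSMUSG00000033933.7) had 14.7 and 13.1 FPKM on day 5, against 9.32 and 6.49 FPKM on day 0. Its log2 fold change was 0.76 ± 0.27 (SE), with an interval of 0.07 to 1.45 (limma adjusted p = 0.105), and it was 0.45 after quantile normalization. RefSeq also lists a Vhl pseudogene, Vhl-ps1, so part of the reads could be shared. Levels of Hif1an came to 0.982 and 0.658 times those of Egln1 in the day 5 libraries, against 0.253 and 0.192 times in the day 0 libraries.

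**Figure D2:**
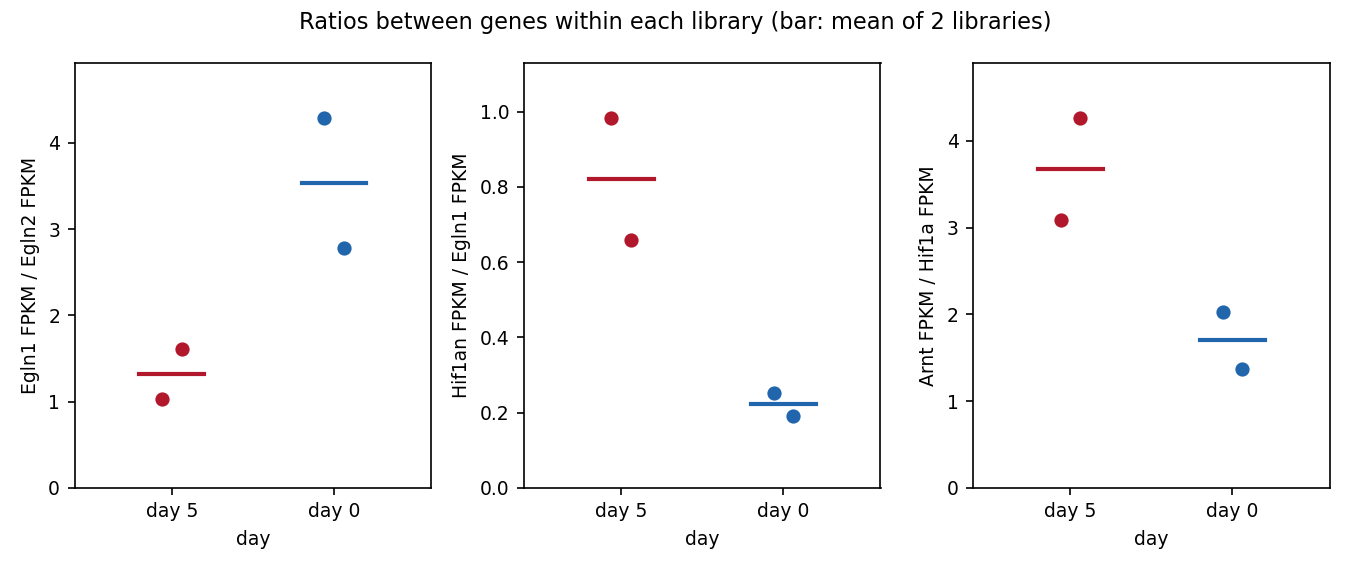
Ratios of FPKM between genes within each library: Egln1 over Egln2 (left), Hif1an over Egln1 (middle) and Arnt over Hif1a (right), with 1 point per library and a bar at the mean of the day (day 5 in red, day 0 in blue, all axes from 0). In each panel the days do not overlap, Egln1 over Egln2 being 1.03 and 1.61 on day 5 and 4.28 and 2.78 on day 0.

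Vegfa (ENSMUSG00000023951.9) had 18.7 and 18.9 FPKM in the day 5 libraries, against 28.7 and 23.5 FPKM in the day 0 libraries. The days did not overlap. Its log2 fold change of -0.45 ± 0.21 (SE) did not pass (limma adjusted p = 0.179), with an interval of -0.98 to 0.08. Vegfb, a relative that signals through VEGF receptor 1, fell (log2 fold change -1.40, limma adjusted p = 0.0413), with 9.14 and 16.7 FPKM on day 5, against 36.8 and 32.0 FPKM on day 0. The call for Vegfb was lost with globin and mitochondrially encoded genes removed (limma adjusted p = 0.0501). With no filter on low FPKM, where 237 of 15168 genes passed over all, that call was lost as well. The difference between Vegfa and Vegfb was not tested. The other 8 of the 9 VEGF ligand and receptor genes beside Vegfa, such as Vegfc, Pgf, Flt1 and Kdr, did not reach 1 FPKM in 2 libraries.

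**Figure D3:**
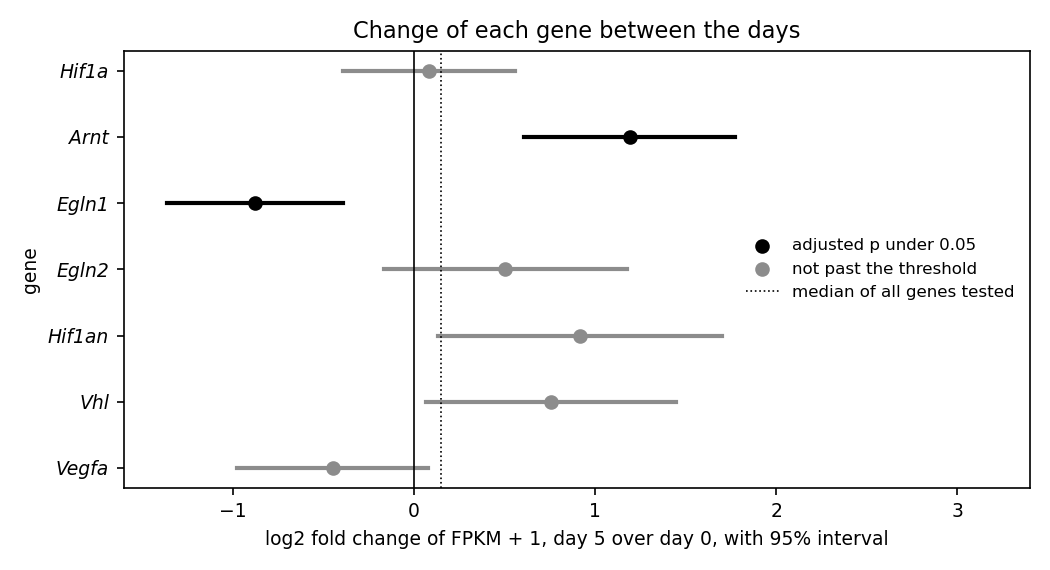
Log2 fold change of FPKM + 1 (day 5 over day 0) of the 7 tested members with its 95% interval before adjustment, in black where limma's adjusted p is under 0.05 and in grey where it is not, and the median of all genes tested (0.15) as a dotted line. Arnt (1.19) and Egln1 (-0.88) are the black points, on opposite sides of 0, and the intervals of Hif1a, Egln2 and Vegfa span 0.

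In order of mean level, the genes ran Arnt, Egln1, Hif1a, Hif1an, Egln2, Vegfa and Vhl on day 5. By the day 0 means they ran Egln1, Arnt, Hif1a, Vegfa, Egln2, Hif1an and Vhl. On day 5 the neighbours Egln1 and Hif1a overlapped, as did Hif1an and Egln2. On day 0 the overlapping neighbours were Egln1 and Arnt, Hif1a and Vegfa, and Egln2 and Hif1an. Both day 5 libraries lay above both day 0 libraries for 4 of 7 members, against 40.2% of all genes tested, and below them for 2 of 7, against 27.0%. The days did not overlap for 67.2% of all genes tested, so gaps in 6 of 7 members are no result about them.

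The tested genes whose values over the 4 libraries were most like those of Arnt, by the root mean square difference of log2(FPKM + 1) centred on each gene's mean, were Slc16a13 (0.036), Nit1 (0.039) and Actr3b (0.047). Nit1, which encodes a nitrilase family enzyme, had 21.1 and 26.8 FPKM on day 5, against 10.9 and 8.48 FPKM on day 0. For Egln1 they were Xrcc6 (0.019), Arhgap30 (0.026) and Smoc1 (0.030). Xrcc6, which encodes the Ku70 subunit of DNA end joining, had 45.0 and 48.5 FPKM on day 5, against 95.3 and 80.5 FPKM on day 0. These likenesses rest on 4 libraries and describe them only.

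Around the members, genes of the partners, relatives and cofactors of HIF moved both ways. Of 33 such genes 30 were tested, 2 rose, 3 fell and 25 did not pass, or 6.67% upward and 10.0% downward against 10.7% and 7.81% over all genes, with a median log2 fold change of -0.074 against 0.15. Usp20, a deubiquitinase reported to act on HIF-1α in human cells, rose, with 10.1 and 13.7 FPKM on day 5, against 2.27 and 1.27 FPKM on day 0 (log2 fold change 2.23 ± 0.34 SE, limma adjusted p = 0.0190). Ncoa2, a coactivator of nuclear receptors and of related basic helix-loop-helix PAS factors, rose as well (1.17, limma adjusted p = 0.0321). The chaperone genes Hsp90aa1 (-1.46) and Hsp90ab1 (-0.95), whose protein HSP90 binds and stabilizes HIF-1α, fell, and Hsp90ab1 did not pass with globin and mitochondrially encoded genes removed (limma adjusted p = 0.0542). Tceb1, which encodes elongin C of the VHL ligase, fell, with 61.8 and 52.7 FPKM on day 5, against 117 and 160 FPKM on day 0 (log2 fold change -1.24 ± 0.22 SE, limma adjusted p = 0.0252). The ligase's other subunit genes Cul2 (0.05), Rbx1 (-0.10) and Tceb2 (0.12), named for their place in that complex after their values were seen, had overlapping days and did not pass. Ep300, which encodes p300, had 32.9 and 26.6 FPKM on day 5, against 16.8 and 15.3 FPKM on day 0, just short of the threshold (log2 fold change 0.84, limma adjusted p = 0.0525), and it was likewise named after its value was seen. With globin and mitochondrially encoded genes removed, 5 rose and 2 fell. With no filter on low FPKM, where 237 of 15168 genes passed over all, the calls of Usp20, Ncoa2, Hsp90aa1, Hsp90ab1 and Tceb1 were lost. With any 1 library left out their log2 fold changes kept their direction, that of Usp20 between 1.97 and 2.49. Such fits hold 1 library on a day and could not decide the calls.

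The HIF-linked target genes leaned downward. Of 70 rows beside the members 53 were tested, 13 fell, 3 rose and 37 did not pass, so that 24.5% fell against 7.81% of all genes tested. Their median log2 fold change was -0.78, against 0.15 for all genes. This list was written with earlier results of these libraries known, so its count is no independent evidence of a direction. With no filter on low FPKM 0 targets passed downward by limma's adjusted p, and 117 of 15168 genes did over all. In that fit 19 targets fell at an unadjusted p under 0.05, and 4025 genes moved in either direction at that level. Fits with 1 library left out could not decide how many targets fall, since a day then holds 1 library. By role, a split made after the values were seen, 7 of 21 tested genes of sugar uptake, glycolysis and lactate export fell and 0 rose, and 6 of 32 tested genes of other roles fell and 3 rose, with medians of -0.97 and -0.28. Of these, 20 of 21 and 24 of 32 were higher in day 0 replicate 1 than in day 0 replicate 2, and the part of that difference in the counts was not tested.

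Ankrd37, an ankyrin repeat gene known as a HIF-1 target, had 8.19 and 5.76 FPKM on day 5, against 155 and 55.9 FPKM on day 0 (log2 fold change -3.58 ± 0.50 SE, limma adjusted p = 0.0165). Its day 0 libraries differed widely, and the log2 fold change was -2.85 without day 0 replicate 1 and -4.31 without day 0 replicate 2. Stc2, which encodes the secreted glycoprotein stanniocalcin 2, had 2.67 and 3.01 FPKM on day 5, against 20.9 and 13.4 FPKM on day 0 (-2.21). Bhlhe40, a repressor of the basic helix-loop-helix family, had 3.67 and 6.60 FPKM on day 5, against 25.3 and 17.7 FPKM on day 0 (-1.90). All of them fell, as did the hexokinase gene Hk2 (-2.10) and the glucose transporter gene Slc2a1 (-2.04). The other 8 that fell were Ldha, Pgam1, Bnip3, Ero1l, P4ha2, Slc16a3, Pkm2 and Gpi1, with log2 fold changes between -1.80 and -0.97, of which Pkm2 and Gpi1 did not pass after quantile normalization (limma adjusted p = 0.0662 and 0.0748). Several enzyme genes of glycolysis, such as Ldha and Pgam1, have processed copies in the mouse genome that can share reads, so the size of their change is uncertain.

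The 3 targets that rose were Tfrc (2.24), Ddit4 (1.58) and Pnrc1 (1.09). With no filter on low FPKM 1 target passed upward, and 120 of 15168 genes did over all. Tfrc, the transferrin receptor, is also an erythroid marker, with 552 and 628 FPKM on day 5, against 120 and 127 FPKM on day 0. Ddit4, which encodes the mTOR inhibitor REDD1, had 301 and 302 FPKM on day 5, against 144 and 69.6 FPKM on day 0. Epo, the hormone gene through which HIF-2 sets red cell supply in the kidney, was listed at effectively 0 in all 4 libraries.

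**Figure D4:**
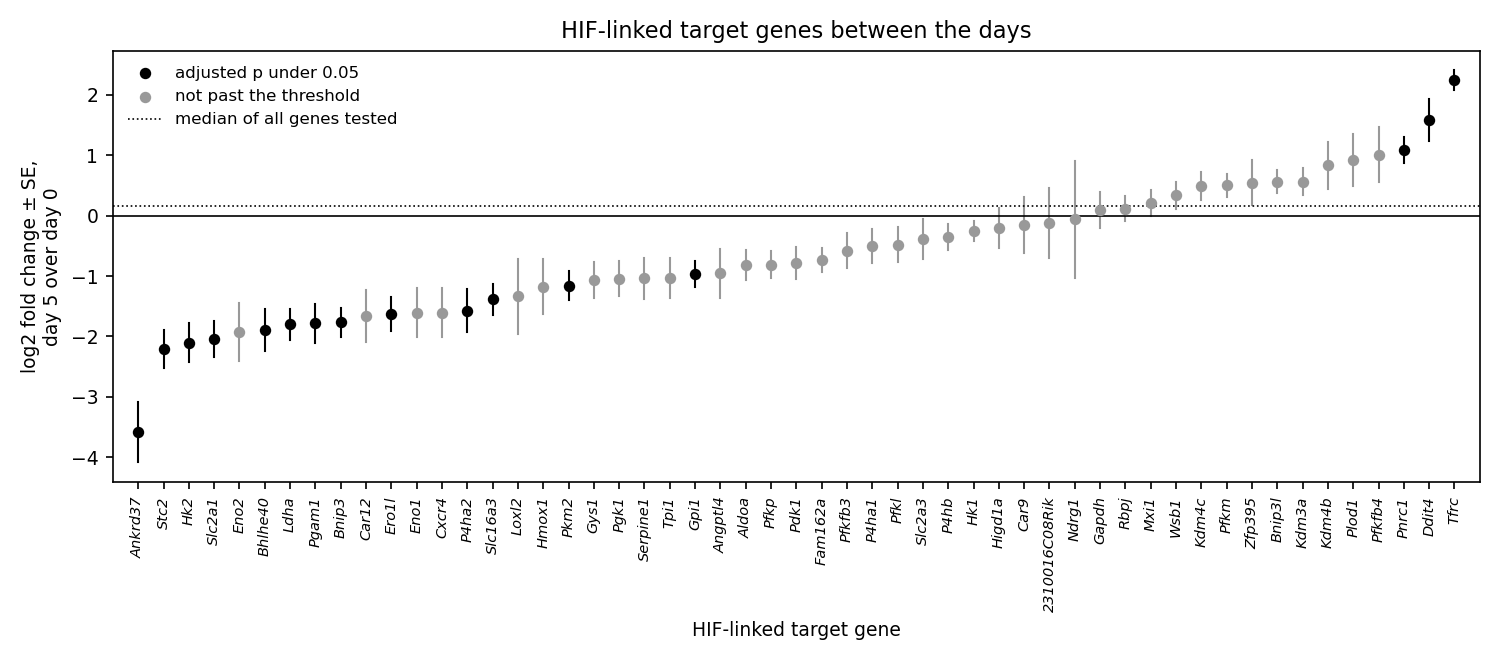
Log2 fold change (day 5 over day 0) with its standard error for the 53 tested HIF-linked target genes beside the members, ordered by size, in black where limma's adjusted p is under 0.05 and grey where it is not, with the median of all genes tested as a dotted line. The 13 black points below 0 run from Ankrd37 (-3.58) to Gpi1 (-0.97), and the 3 above 0 are Pnrc1, Ddit4 and Tfrc.

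The day 0 libraries differed from each other in the targets too. Of the 53 tested targets 44 were higher in day 0 replicate 1 than in day 0 replicate 2, or 83.0%, against 57.7% of all tested genes. The median log2 difference between those replicates was 0.54 for the targets and 0.07 for all genes. Of the tested members, Arnt, Egln1, Hif1an, Vhl and Vegfa were higher in day 0 replicate 1, and Hif1a and Egln2 in day 0 replicate 2. Between the day 5 libraries, 30 of 53 targets, or 56.6%, were higher in replicate 1, against 50.8% of all genes. The list's median log2 fold change was -0.54 without day 0 replicate 1 and -0.99 without day 0 replicate 2, so it was negative without either one. What differed between these cultures was not tested.

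**Figure D5:**
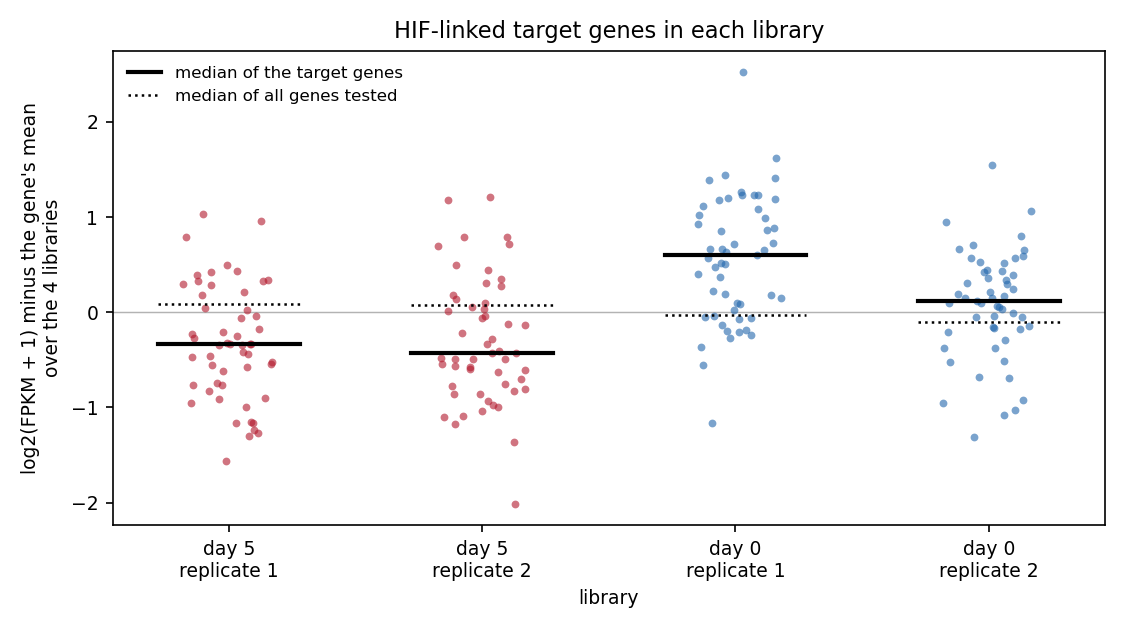
Values of the 53 tested HIF-linked target genes in each library, as log2(FPKM + 1) minus the gene's mean over the 4 libraries, with a solid line at the median of these genes and a dotted line at the median of all 10736 genes tested. Medians of the targets are -0.34 and -0.43 on day 5, against 0.60 and 0.12 on day 0, the highest being day 0 replicate 1.

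Other oxygenases that, like the EGLN proteins and FIH, use 2-oxoglutarate and iron moved both ways. Of 36 rows 31 were tested, 2 rose, 2 fell and 27 did not pass. That is 6.45% in each direction, against 10.7% upward and 7.81% downward over all genes. Their median log2 fold change was 0.40, against 0.15 for all genes. With no filter on low FPKM 0 passed in either direction, and 237 of 15168 genes did over all. Fto, an RNA demethylase gene, rose, with 33.3 and 33.6 FPKM on day 5, against 15.9 and 11.9 FPKM on day 0 (1.22, limma adjusted p = 0.0285), and the histone demethylase gene Kdm4a rose as well (1.01). Jmjd6, a gene of a lysine hydroxylase that acts on splicing factors, fell, with 52.7 and 64.5 FPKM on day 5, against 210 and 146 FPKM on day 0 (-1.57, limma adjusted p = 0.0192). P4ha2, a subunit gene of the collagen prolyl hydroxylase, is the other gene that fell and also stands among the targets above. The share that passed was 12.9%, against 18.5% of all genes tested, and so few genes do not set the list apart.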

How the data were processed

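RNA was sequenced from 2 libraries per day, as stranded libraries of total RNA, per the labels' protocols. FPKM per gene came from the authors, who deposited 1 table for all 4 libraries. Bowtie and mm9 stand in the submitters' processing notes, with no quantifier named in the sources used here. Rows were matched by symbol, list symbols also through RefSeq synonyms (GRCm38.p6). Tested were 10736 genes that reached 1 FPKM in 2 or more libraries. The fit to log2(FPKM + 1) used limma 3.58.1 (R 4.3.3; lmFit, then eBayes with a mean-variance trend; both directions), so fold changes of low genes are understated. The code of the fit was checked on normal values simulated with the fit's own means and variances, which does not test its assumptions for FPKM. Ratios were compared by exact permutation tests. Named were all 9 members, up to 5 called genes per list and direction, and the 3 most similar genes of each called member. Hif3a, Ep300, Epo, the VHL ligase subunits that did not pass and the falling targets past the first 5 were named after their values were seen. Members, lists and tests were chosen with earlier results of these data known. Alternatives were another pseudocount (0.1), no filter or one of 5 FPKM, quantile normalization, removal of 10 globin and 13 mitochondrial rows, the replicate block and leaving out each library. PU.1, DNase and ChIA-PET lists are in mm9 coordinates. They were not used here, since no annotation of that build was at hand to place the genes.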

Additional observations from a re-analysis of the deposited data

How the results depend on the processing

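Without the FPKM filter, limma called 237 of 15168 genes, 0 members (3 at an unadjusted p under 0.05), and 0 of the HIF-linked targets fell (19 unadjusted). Same-numbered replicates did not deviate together over all genes taken at once (r = 0.048), and the labels do not say that they are paired. Whether same-numbered libraries were handled together was not tested. With the replicate number as a block, 1 member passed and 20 targets fell, against 2 members and 13 targets without the block. Limma's adjusted p was then 0.0505 for Egln1 and 0.0503 for Hsp90ab1. With 1 library left out, the lone library of that day is taken to be as variable as the other day's pair, and between 0 and 13 genes passed (2504 to 3440 unadjusted), 0 members and 0 falling targets (15 to 25 unadjusted). The log2 fold change of Hif1a turned to -0.019 after quantile normalization, and with 1 library left out it ranged from -0.013 (without day 0 replicate 1) to 0.18. Other tested members kept their direction in all 10 alternatives, Arnt between 0.98 and 1.40 and Egln1 between -1.02 and -0.73. The cause of these shifts was not tested. Other settings for regions at gene starts were not run, since no mm9 positions of the genes were at hand. Low genes such as Epas1 and Egln3 cannot be judged, as FPKM carry no depth.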
